A study of Mus musculus with 9 samples.

Results

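Il4, Il5, Il13, Il10, Gata3 and Maf, the genes of 3 type 2 helper (Th2) cytokines, of interleukin 10 and of 2 transcription factors tied to them, were followed in splenic CD4+ T cells treated with compound 10. They were taken by gene symbol from the annotation, 6 of 45321 annotated genes, and all 6 passed the filter on low counts that left 14011 genes to test. The cells came from C57BL/6 mice, an inbred laboratory strain, and had been purified untouched, that is, without antibody on the CD4+ cells. They were kept for 1 h in 12.5 µM compound 10, which the series describes as an inhibitor of the NFAT:AP-1 complex, or in DMSO, its vehicle, and then stimulated for 2 h with 10 nM PMA and 1 µM ionomycin or left unstimulated. The 4 groups were compound 10 with stimulation (3 libraries), DMSO with stimulation (2), compound 10 without stimulation (2) and DMSO without stimulation (2). No library lacked both compound and vehicle, and the labels give neither the age nor the sex of the mice.

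Th2 cells are the CD4+ T cells that act against worms and in allergy. Interleukin 4 signals through a receptor that contains Il4ra to STAT6, which raises Gata3, and Gata3 in turn opens the cluster in which Il4, Il13 and Il5 lie beside Rad50. Calcium signals bring NFAT into the nucleus and kinase signals switch on AP-1, and both factors bind the promoters and enhancers of these cytokine genes once a T cell is stimulated, and c-Maf, the product of Maf, acts at the Il4 promoter and on Il10. PMA activates protein kinase C and ionomycin lets calcium into the cell, so that the 2 reagents together replace the signal of the T cell receptor. Freshly isolated splenic CD4+ T cells are a mixture in which few cells are committed to the Th2 fate.

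Estimated counts per library ranged from 10669821 to 21852830. Nuclear ribosomal RNA took 1.78% to 9.66% of the counts in compound 10 libraries and 3.58% to 26.3% in DMSO libraries, with 26.3% in unstimulated DMSO library 2 and 13.8% in stimulated DMSO library 2. Whether replicate libraries stand for separate mice or cultures is not stated in the labels, and the p-values therefore describe only how these samples spread, which may be technical. Markers of CD4+ T cell identity (Cd3d, Cd3e, Cd3g, Cd4, Trac, Lck and Cd28) were above 0 in every group, and their summed level was 2150 to 2280 CPM in stimulated compound 10 libraries against 1510 to 1930 CPM in stimulated DMSO libraries. Of these 7 genes 5 were called higher with compound 10 there, and each of those calls was lost without stimulated DMSO library 2 (adjusted p = 0.339 for Cd3e, 0.0967 for Cd3g, 0.103 for Cd4, 0.108 for Lck and 0.0574 for Cd28) and without the pair of DMSO libraries richest in ribosomal RNA (0.0722 to 0.343), that of Cd3e in 8 of 10 omissions. Leaving out a library of a group of 2, or that pair of DMSO libraries, leaves a group without replication. A call lost in this way, here and below, does not single out a library. CPM is the count scaled to library size and, by the TMM method, to library composition. In bulk RNA, fewer cells of a type and less RNA per cell cannot be told apart.

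The promoter windows show which NFAT core letters lie next to the starts of the genes that moved together, and those of Gata3, which was not called with them. In GRCm38 the cytokine genes sit on chromosome 11, with Il4 at chr11:53602982-53618669 on the minus strand, Il13 at chr11:53631324-53634702 on the minus strand and Il5 at chr11:53720794-53725106 on the plus strand. The start of Il5 lay 102.1 kb from that of Il4, with Il13 and Rad50 between. Il10 is at chr1:131019845-131024974 (plus strand), Gata3 at chr2:9857078-9890034 (minus strand) and Maf at chr8:115682942-115707794 (minus strand). RefSeq windows of GRCm38.p6, 300 bases from 250 before to 50 after the start, were at hand for Il4, Il5, Il13 and Gata3. They are printed 5′ to 3′ on the strand of the gene, with the NFAT core GGAAA, or TTTCC where it lies on the other strand, in capitals. The Il4 window is chr11:53618616-53618915, that of Il13 chr11:53634653-53634952, that of Il5 chr11:53720544-53720843 and that of Gata3 chr2:9878551-9878850.
Il4: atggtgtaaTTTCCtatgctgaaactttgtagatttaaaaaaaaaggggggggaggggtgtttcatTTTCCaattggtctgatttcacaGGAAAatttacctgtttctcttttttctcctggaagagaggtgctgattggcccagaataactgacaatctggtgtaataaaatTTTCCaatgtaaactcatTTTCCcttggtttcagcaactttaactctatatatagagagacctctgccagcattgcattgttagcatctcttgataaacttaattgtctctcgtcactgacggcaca
Il13: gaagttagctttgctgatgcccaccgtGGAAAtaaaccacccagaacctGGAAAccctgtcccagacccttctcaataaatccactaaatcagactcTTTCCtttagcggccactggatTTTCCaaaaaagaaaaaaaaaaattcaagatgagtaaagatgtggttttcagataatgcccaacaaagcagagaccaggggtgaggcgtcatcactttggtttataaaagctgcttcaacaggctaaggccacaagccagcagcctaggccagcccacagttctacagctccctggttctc
Il5: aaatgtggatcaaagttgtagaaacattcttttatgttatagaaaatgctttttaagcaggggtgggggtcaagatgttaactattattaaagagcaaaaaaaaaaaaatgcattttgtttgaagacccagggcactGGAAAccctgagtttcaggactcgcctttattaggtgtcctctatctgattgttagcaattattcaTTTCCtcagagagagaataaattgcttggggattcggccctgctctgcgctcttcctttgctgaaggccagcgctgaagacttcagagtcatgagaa
Gata3: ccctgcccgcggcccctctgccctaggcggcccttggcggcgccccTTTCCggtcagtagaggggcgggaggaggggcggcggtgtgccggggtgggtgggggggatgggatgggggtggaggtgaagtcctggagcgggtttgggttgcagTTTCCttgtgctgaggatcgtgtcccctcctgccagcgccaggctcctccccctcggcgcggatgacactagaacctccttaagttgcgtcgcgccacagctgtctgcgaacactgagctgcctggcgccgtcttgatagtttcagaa

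The Il4 window held 5 NFAT cores, whose first bases lie at -241, -184, -161, -77 and -59 from the start. Il13 held 4, at -223, -201, -153 and -131, while Il5 held 2, at -113 and -47, and Gata3 held 2, at -204 and -98. Of 32851 RefSeq windows of this length 61.3% held at least 1 core on either strand, 9.42% held 3 or more and 0.728% held 5 or more. The AP-1 letters TGANTCA, present in 7.81% of windows, were not found in any of the 4. The GATA letters GATAA, present in 25.4% of windows, occurred once each in the Il4 and Il13 windows, and the Maf half-site letters TGCTGA, present in 19.5%, occurred 3 times in the Il4 window and once in each of the others. Both strands were read, and none of these matches overlapped another. A second RefSeq start of Il4 has a window at chr11:53617289-53617588 with 1 NFAT core. A match is a description of letters and not a binding site, and no match says only that these letters are not in this window.

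In stimulated cells the 4 cytokine genes were lower with compound 10 and the 2 transcription factor genes did not pass the test. Il4, Il5, Il13 and Il10 made 4 of 6 members lower at an adjusted p under 0.05, where 11.4% of all tested genes were lower and 23.1% changed in either direction (edgeR quasi-likelihood test, Benjamini-Hochberg over 14011 genes). As shares of the DMSO mean, the compound 10 means were 3.55% for Il4, 5.26% for Il5, 8.46% for Il13, 24.7% for Il10, 107% for Maf and 129% for Gata3.

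**Figure D1:**
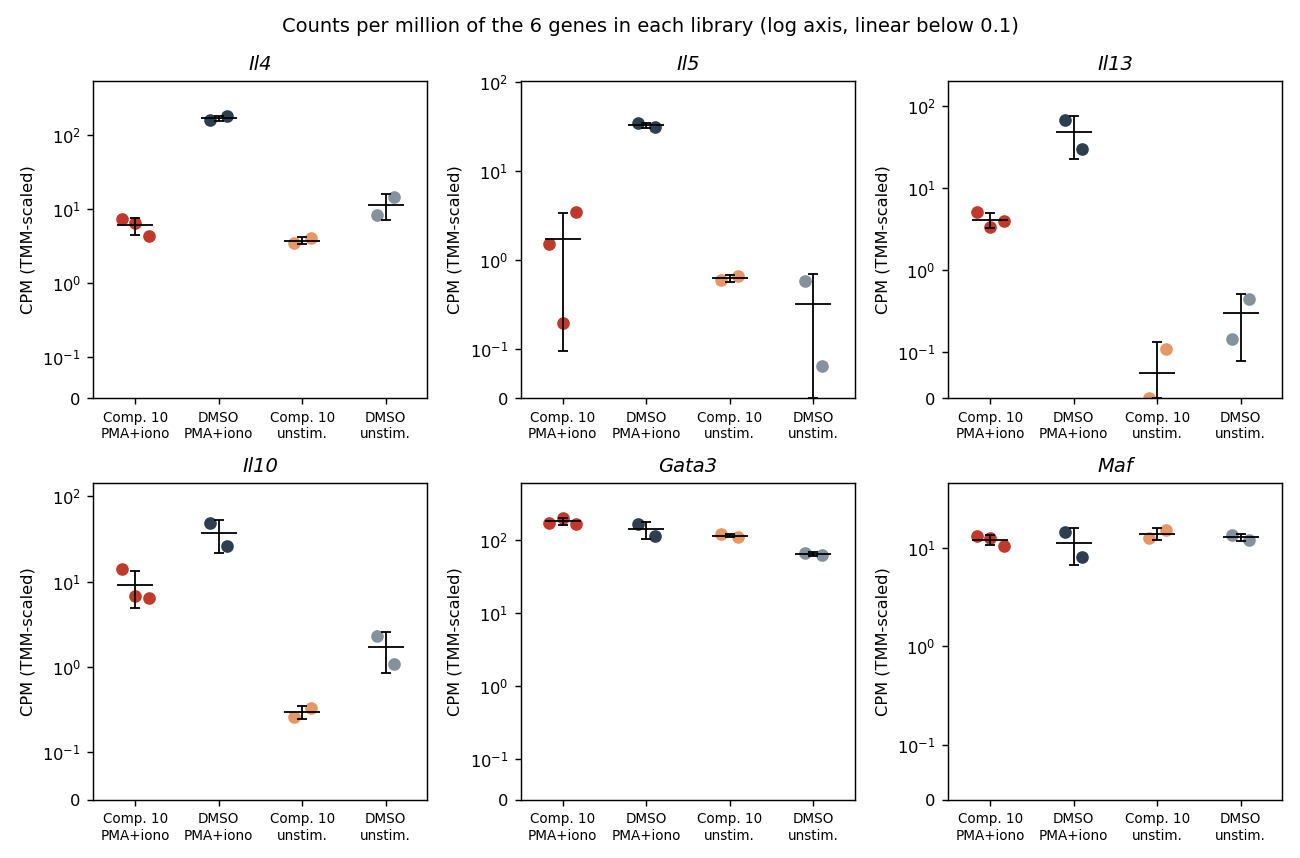
CPM (TMM-scaled counts) of the 6 genes in each library, on a log axis that turns linear below 0.1; points are libraries, horizontal lines group means and bars ± 1 SD (3 libraries for compound 10 with PMA and ionomycin, 2 for the other groups). The 3 stimulated compound 10 libraries lie below both stimulated DMSO libraries for Il4, Il5, Il13 and Il10, above them for Gata3, and overlap them for Maf.

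Il4, which encodes the cytokine that both marks and promotes Th2 cells, gave 7.21, 6.45 and 4.28 CPM in the stimulated compound 10 libraries, against 158 and 178 CPM in the stimulated DMSO libraries. The groups were far apart and did not overlap. The log2 fold change was -4.81 (SE 0.26; adjusted p = 4.33e-06), and its p was the smallest of all 14011 genes tested. All 3 stimulated compound 10 libraries also lay below the unstimulated DMSO libraries, which gave 8.35 and 14.5 CPM.

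Il13, whose product acts on epithelium and smooth muscle in allergy, gave 5.05, 3.32 and 3.93 CPM with compound 10 and 66.8 and 30.1 CPM with DMSO in stimulated cells. The DMSO libraries differed from each other by more than the compound 10 libraries did, and the groups did not overlap. For Il13 the log2 fold change was -3.57 (SE 0.38; adjusted p = 0.000141). Il5, the growth factor of eosinophils, rested on few reads with compound 10, with 19, 3 and 39 counts (1.52, 0.195 and 3.40 CPM) against 653 and 514 counts (34.1 and 30.8 CPM) with DMSO. The highest compound 10 library stayed below both DMSO libraries, and the spread among the compound 10 libraries was wide. Its log2 fold change of -4.30 had an SE of 0.77 (adjusted p = 0.00706) and a 95% interval of -6.11 to -2.49.

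Il10, the gene of an anti-inflammatory cytokine that several T helper subsets make, gave 14.02, 6.84 and 6.46 CPM with compound 10, against 47.9 and 25.9 CPM with DMSO. Both groups spread widely, and they did not overlap. Its log2 fold change was -2.02 (SE 0.38; adjusted p = 0.00416). The 4 cytokine calls were kept under each of 22 other ways of processing the data, with Il5 reaching an adjusted p of 0.0404 and Il10 one of 0.0420 at the weakest.

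Gata3, which encodes the factor that defines the Th2 lineage and is also expressed by resting CD4+ T cells, gave 171, 204 and 168 CPM with compound 10, against 167 and 115 CPM with DMSO in stimulated cells. The compound 10 libraries lay above both DMSO libraries, the lowest of them by little. The log2 fold change of 0.36 (SE 0.19; adjusted p = 0.203) did not pass, and its 95% interval was -0.05 to 0.78. Maf gave 13.1, 12.6 and 10.47 CPM with compound 10 and 14.5 and 7.97 CPM with DMSO, so that the groups overlapped. Its log2 fold change was 0.10 (SE 0.25; adjusted p = 0.824), with an interval of -0.45 to 0.66, and its sign varied over the alternatives (-0.27 to 0.61).

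**Figure D2:**
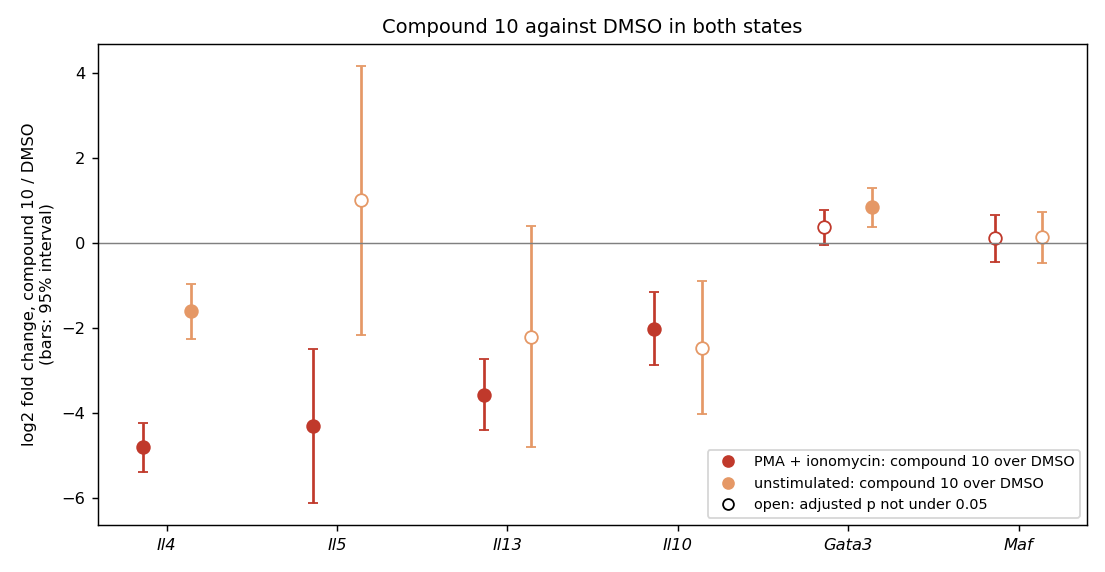
Log2 fold change of compound 10 over DMSO for each gene with its 95% interval, in stimulated cells (left of each pair) and in unstimulated cells (right); filled points had an adjusted p under 0.05. Il4 is at -4.81 in stimulated and -1.61 in unstimulated cells, and the intervals of Il5 and Il13 in unstimulated cells are wide.

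Levels per transcript length put the 6 genes on one scale. In stimulated compound 10 cells Gata3 stood highest, at 47.0 ± 10.0 TPM, followed by Il4 at 11.4 ± 3.48, Il10 at 6.30 ± 2.99, Il13 at 3.11 ± 0.639, Maf at 1.70 ± 0.357 and Il5 at 0.922 ± 0.822 TPM (SD, n = 3). In stimulated DMSO cells Il4 stood highest, at 342 ± 22.6 TPM, followed by Il13 at 39.2 ± 22.0, Gata3 at 37.9 ± 11.3, Il10 at 27.0 ± 12.2, Il5 at 19.6 ± 2.06 and Maf at 1.63 ± 0.770 TPM (SD, n = 2). Il4 was thus above Gata3 in each stimulated DMSO library and below it in each stimulated compound 10 library. Among neighbours in these orders, Il13 overlapped with Gata3, Gata3 with Il10, and Il10 with Il5 in stimulated DMSO libraries. In stimulated compound 10 libraries Il4 overlapped with Il10, and Maf with Il5.

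In unstimulated cells compound 10 moved Il4 down and Gata3 up, and Il5, Il13 and Il10 were low in both groups. Per length, Il4 averaged 9.83 ± 1.77 TPM with compound 10 and 28 ± 2.45 TPM with DMSO, against 40.5 ± 1.34 and 21.8 ± 6.95 TPM for Gata3 (SD, n = 2 each). There 1 of 6 members was lower and 1 higher, where 2.91% of all tested genes were lower and 4.45% higher (7.36% in either direction). Il4 gave 3.44 and 4.04 CPM with compound 10, against 8.35 and 14.5 CPM with DMSO, without overlap. Its log2 fold change was -1.61 (SE 0.30; adjusted p = 0.00868), and the call was lost without unstimulated DMSO library 2 (adjusted p = 0.0819), without unstimulated compound 10 library 1 (0.0906) or 2 (0.0536), or without the DMSO library of each state that was richest in ribosomal RNA (0.101). Gata3 gave 121 and 111 CPM with compound 10, against 67.4 and 62.6 CPM with DMSO. These groups were clearly separate, with a log2 fold change of 0.83 (SE 0.21; adjusted p = 0.0330). Of the 7 markers of CD4+ T cell identity, 4 were also called higher with compound 10 there (edgeR). These were Cd3g (1.09; adjusted p = 0.00828), Lck (0.99; 0.0211), Cd28 (0.855; 0.026) and Trac (0.76; 0.0458), and each call was lost in some omission. Cd3e (0.69), Cd4 (0.50) and Cd3d (-0.02) were not called. The 7 markers summed to 1180 to 1360 CPM with compound 10, against 762 to 883 CPM with DMSO. Whether the Gata3 change goes with theirs was not tested.

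The Gata3 call in unstimulated cells did not hold in every alternative. It was lost without either unstimulated DMSO library, either unstimulated compound 10 library, or the pair of DMSO libraries richest in ribosomal RNA. Those fits leave a group without replication. The call was also lost without stimulated compound 10 library 3 (adjusted p = 0.0560), and with limma on log2(TPM + 1) (0.186) or log2(TPM + 0.1) (0.206). Leaving out either stimulated DMSO library, or stimulated compound 10 library 1 or 2, kept it. Its log2 fold change stayed between 0.77 and 0.93 over all alternatives.

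The other cytokine genes in unstimulated cells rested on a handful of reads. Il10 had 4 and 6 counts with compound 10 (0.260 and 0.332 CPM), against 32 and 17 counts with DMSO (2.31 and 1.10 CPM), and the groups did not overlap. The log2 fold change of -2.47 (SE 0.70; adjusted p = 0.0629) missed the threshold, which it passed in 8 of 22 alternatives, DESeq2 among them (adjusted p = 0.00281), and over all 22 the adjusted p ran from 1.54e-05 to 0.288. Il13 had 0 and 2 counts with compound 10, against 2 and 7 counts with DMSO, which is 0.195 times as many for the same depth (exact 95% interval 0.0205 to 0.943). Il5 had 9 and 12 counts with compound 10, against 8 and 1 with DMSO, 2.05 times as many (0.899 to 5.08). Such intervals cover counting error only, and the fit called neither gene (adjusted p = 0.303 for Il13 and 0.726 for Il5). Maf gave 12.5 and 15.2 CPM with compound 10 and 13.5 and 11.9 CPM with DMSO, which overlapped, with a log2 fold change of 0.13 (SE 0.28; adjusted p = 0.841; 95% interval -0.48 to 0.73).

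Stimulation raised all members but Maf in DMSO cells. There 5 of 6 members were higher, where 14.4% of all tested genes were higher and 28.1% changed in either direction. The log2 fold changes were 3.88 for Il4 (SE 0.29; adjusted p = 2.84e-06), 7.28 for Il13 (SE 0.58; 9.16e-06), 6.68 for Il5 (SE 1.10; 0.00381) and 4.45 for Il10 (SE 0.51; 0.000153). Gata3 rose by less, with a log2 fold change of 1.12 (SE 0.21; adjusted p = 0.00195; 0.117 with limma on log2(TPM + 1) and 0.115 on log2(TPM + 0.1)), and Maf stood at -0.17 (SE 0.28; 0.702). Over 9 counts in unstimulated DMSO cells the Il13 count was 1782 and the Il5 count 1167 in stimulated DMSO cells, so those 2 changes start from near 0. The Il5 call was lost without the pair of DMSO libraries richest in ribosomal RNA (adjusted p = 0.0597). These comparisons share the stimulated and the unstimulated DMSO libraries with those of the compound.

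Under compound 10, stimulation raised Il13, Il10 and Gata3. There 3 of 6 members were higher, where 11.0% of all tested genes were higher and 21.8% changed in either direction. Il13 reached 159 counts in 3 stimulated libraries, against 2 counts in 2 unstimulated ones, 67.7 times as many for the same depth (exact 95% interval 18.4 to 564; edgeR adjusted p = 0.000294). Il10 had a log2 fold change of 4.89 (SE 0.61; adjusted p = 0.000322), and all stimulated libraries lay above both unstimulated ones. Il4 was at 5.98 ± 1.52 CPM with stimulation (n = 3), against 3.74 ± 0.42 CPM without (n = 2), a log2 fold change of 0.68 (SE 0.28; adjusted p = 0.109). The stimulated libraries all lay above the unstimulated ones, and the 95% interval of the change was 0.06 to 1.29. Il5 changed by 1.38 (SE 0.99; adjusted p = 0.394), with overlapping libraries, and Maf by -0.20 (SE 0.25; 0.646).

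Gata3 rose by 0.64 on the log2 scale with stimulation under compound 10 (SE 0.19; adjusted p = 0.0311), with all libraries apart. The call was lost without unstimulated compound 10 library 1 (adjusted p = 0.120) or 2 (0.206) and without stimulated compound 10 library 3 (0.0569). With limma its log2 fold change was 0.19 (adjusted p = 0.716) both on log2(TPM + 1) and on log2(TPM + 0.1), scales whose all-gene median shifted by -0.21 and -0.35, and with an offset for effective length the adjusted p was 0.0620.

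The difference between the compound's effect in stimulated and in unstimulated cells was tested as an interaction. It passed for Il4, with -3.20 on the log2 scale (SE 0.39; adjusted p = 0.00313), which made 1 of 6 members lower where 0.607% of all tested genes were lower and 1.03% passed in either direction. It did not pass for Il5 (-5.30, SE 1.54; adjusted p = 0.176), Il13 (-1.36, SE 1.76; 0.807), Il10 (0.45, SE 0.80; 0.869), Gata3 (-0.47, SE 0.28; 0.494) or Maf (-0.02, SE 0.38; 0.989). Il5 passed in 3 of 21 alternatives, without stimulated compound 10 library 2, the one with 3 counts (adjusted p = 0.0229), with no filter (5.87e-14) and with limma on log2(TPM + 1) (0.0120). Il13 passed in 1, with limma on log2(TPM + 1) (0.0208). The intervals of Il5 (-8.92 to -1.68) and Il13 (-5.23 to 2.52) were wide.

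Ordered by mean CPM from low to high, Il13 and Il10 shared an order and Il4 had another. Il4 was lowest in unstimulated compound 10, then stimulated compound 10, unstimulated DMSO and stimulated DMSO, and no neighbours in that order overlapped. For Il13 and Il10 the order was unstimulated compound 10, unstimulated DMSO, stimulated compound 10 and stimulated DMSO, also with no overlap between neighbours. The first step was not called for either gene. For Il13 it rested on library scaling, since unstimulated compound 10 library 2 and unstimulated DMSO library 1 both had 2 counts (0.111 and 0.144 CPM). Il4 was thus the only 1 of these 3 cytokine genes with stimulated compound 10 below unstimulated DMSO. For Il5 the order was unstimulated DMSO, unstimulated compound 10, stimulated compound 10 and stimulated DMSO, and the middle pair overlapped. Its first pair was apart by little, with 0.5762 CPM in unstimulated DMSO library 1 and 0.5845 CPM in unstimulated compound 10 library 1. Gata3 ran from unstimulated DMSO through unstimulated compound 10 and stimulated DMSO, which overlapped, to stimulated compound 10. All neighbours overlapped for Maf.

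The annotation lists 4 transcripts of Il4, of which Il4-201 took most counts. It held 86.6%, 90.8% and 70.1% of Il4 counts in the stimulated compound 10 libraries, against 96.9% and 96.8% in the stimulated DMSO libraries. In unstimulated cells it held 61.7% and 64.3% with compound 10, against 84.8% and 90.5% with DMSO. The share was thus lower in every compound 10 library than in both DMSO libraries of the same state. Il4-203, which starts further downstream, took 9.87%, 4.38% and 9.11% in stimulated compound 10 libraries, against 2.65% and 2.41% in stimulated DMSO libraries. In counts it fell as well, to 8.88, 4.33 and 4.46 estimated reads in stimulated compound 10 libraries, against 80.3 and 71.5 in stimulated DMSO libraries. In unstimulated cells its counts overlapped, with 10.96 and 19.68 with compound 10 and 15.43 and 17.34 with DMSO. Those of Il4-201 did not overlap there, with 32.7 and 47.0 with compound 10 and 98.4 and 203.6 with DMSO. These shares are estimates that split reads of shared exons, over as few as 49 Il4 counts in a library, and were not tested. Gata3-201 held 99.7% or more of Gata3 counts in every library. Genes that overlap Il5, Gata3 or Maf in the annotation had at most 9.57 estimated counts in any library, and whether the counting used strand is not given in the sources used here.

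**Figure D3:**
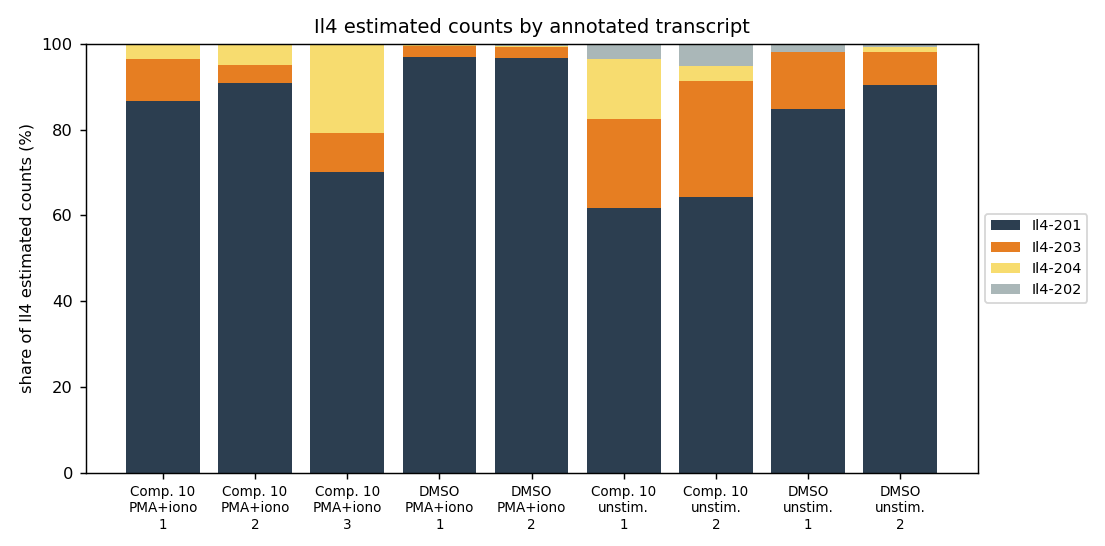
Share of Il4 estimated counts (percent) assigned to each of 4 annotated transcripts in each library. Il4-201 fills 70.1% to 90.8% of the bar in stimulated compound 10 libraries, against 96.8% and 96.9% in stimulated DMSO libraries.

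Genes that share the neighbourhood of the members moved in both directions or did not pass. Of 59 annotated genes that start within 250 kb of a member's start, 18 were tested, and in stimulated cells 3 were higher and 2 lower with compound 10, near the 11.7% higher and 11.4% lower of all tested genes. Their median log2 fold change was 0.12, against 0.00 for all genes. Rad50, the DNA repair gene between Il5 and Il13 whose introns hold enhancers of the Th2 cytokine genes, was at 3.16 ± 1.26 CPM with compound 10 (n = 3), against 2.40 ± 0.52 CPM with DMSO (n = 2). Its log2 fold change was 0.40 (SE 0.45; adjusted p = 0.590). Kif3a, a kinesin motor gene on the far side of Il4, was at -0.38 (SE 0.28; adjusted p = 0.375). Irf1, an interferon regulatory factor gene whose start lies 151.3 kb from that of Il4, fell by 0.75 on the log2 scale (SE 0.18; adjusted p = 0.0100), a call lost without stimulated DMSO library 2 (0.0658) or the pair richest in ribosomal RNA (0.0689). Slc22a5, a carnitine transporter gene beyond it, rose by 1.24 (SE 0.24; adjusted p = 0.00329) and passed with each library left out in turn. Of the other calls, Atp5c1 (0.85) was lost without stimulated DMSO library 2 (adjusted p = 0.0671) or that pair (0.0788). Taf3 (-1.08) lost its call without stimulated DMSO library 2 (0.184), stimulated compound 10 library 1 (0.0526) or 3 (0.0568), or that pair (0.236), and Rassf5 (0.55) without the same (0.233, 0.0561, 0.0690 and 0.234).

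**Figure D4:**
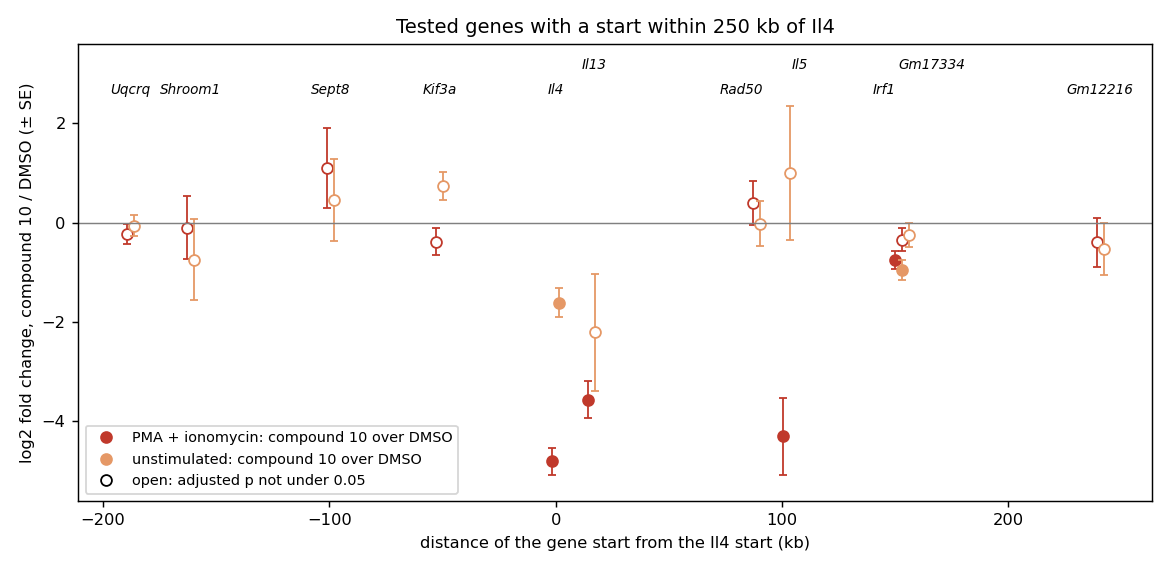
Log2 fold change of compound 10 over DMSO (± SE) for the tested genes that start within 250 kb of Il4, against the distance of the gene start from that of Il4 in kb, in stimulated and unstimulated cells; filled points had an adjusted p under 0.05. In stimulated cells Il4, Il13 and Il5 lie between -4.81 and -3.57, while Kif3a is at -0.38 and Rad50 at 0.40.

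The receptor and signal branch of interleukin 4 moved both ways in stimulated cells. Of 12 tested genes 4 were higher and 3 lower with compound 10, with a median log2 fold change of 0.21. Over all tested genes 11.7% were higher and 11.4% lower, with a median of 0.00, against which the counts of this and the next lists are to be read. Il4ra, the receptor chain that binds interleukin 4, averaged 300 ± 24.8 CPM with compound 10 (n = 3), against 118 ± 1.61 CPM with DMSO (n = 2), a log2 fold change of 1.35 (SE 0.18; adjusted p = 0.000334). Jak1, a kinase of that receptor, averaged 263 ± 37.6 CPM with compound 10 and 480 ± 41.6 CPM with DMSO, a log2 fold change of -0.87 (SE 0.18; adjusted p = 0.00466). These 2 calls held without each library in turn. Stat5b rose (1.04), a call lost without stimulated DMSO library 1 (adjusted p = 0.0504), and the feedback inhibitor gene Cish fell (-1.28), a call lost without stimulated DMSO library 2 (0.114) or the pair richest in ribosomal RNA (0.127). Each of the other 3 calls was lost in 4 to 9 of the 10 omissions, those of the 9 single libraries and of that pair.

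Of 17 tested factors that promote Th2 genes 3 were higher and 4 lower, with a median of -0.55. Nfkb1, the p50 subunit gene of NF-kB, averaged 153 ± 11.3 CPM with compound 10, against 413 ± 71.3 CPM with DMSO, a log2 fold change of -1.44 (SE 0.21; adjusted p = 0.000555). Men1, the menin gene, fell by 1.05 on the log2 scale (SE 0.16; adjusted p = 0.000672). Tcf7, whose product TCF-1 raises Gata3 and is high in naive T cells, averaged 234 ± 21.1 CPM with compound 10 and 61.7 ± 20.4 CPM with DMSO, a log2 fold change of 1.92 (SE 0.30; adjusted p = 0.000912). Calls for these 3 held without each library. Batf (-0.77), an AP-1 family partner of Irf4, lost its call without stimulated DMSO library 2 (adjusted p = 0.0600) or the pair richest in ribosomal RNA (0.0739), and each of the other 3 calls was lost in 4 to 7 of the 10 omissions.

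Of 9 tested factors that restrain Th2 genes 2 were higher and 2 lower, with a median of 0.18. Runx3, which silences Il4 in Th1 cells, averaged 80.0 ± 3.09 CPM with compound 10, against 26.0 ± 5.42 CPM with DMSO, a log2 fold change of 1.62 (SE 0.18; adjusted p = 0.000133). Bcl6, a repressor and the lineage factor of follicular helper cells, rose by 1.16 (SE 0.20; adjusted p = 0.00155). Both held without each library, while Riox2 (-0.82) lost its call without stimulated DMSO library 1 (adjusted p = 0.0601) or the pair richest in ribosomal RNA (0.0504), and Ndfip1 (-0.79) without that library (0.199) or stimulated compound 10 library 1 (0.0876) or 3 (0.0925).

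Other products and receptors of Th2 cells fell or did not pass, with 3 of 10 lower and a median of -0.75. Il21, a cytokine of follicular helper cells, averaged 5.39 ± 1.91 CPM with compound 10 and 26.2 ± 0.66 CPM with DMSO, a log2 fold change of -2.28 (SE 0.30; adjusted p = 0.000286). Icos, a costimulatory receptor, fell by 0.75 on the log2 scale (SE 0.16; adjusted p = 0.00493). Csf2 (-1.35) lost its call without stimulated DMSO library 1 (adjusted p = 0.152) or 2 (0.0608) or the pair richest in ribosomal RNA (0.0887), and Il3 (-1.10; 0.0510) and Areg (-0.86; 0.0829) missed the threshold. Over all tested genes 11.4% were lower and 23.1% changed in either direction. Of 11 genes tied to Il10 and Maf 0 were higher and 2 lower, with a median of -0.20. These were Ikzf3, the Aiolos gene, with -1.61 (SE 0.20; adjusted p = 0.000247), and Tigit, an inhibitory receptor gene, with -1.04 (SE 0.21; 0.00392), which was lost without stimulated DMSO library 1 (0.0555). Prdm1, the Blimp-1 gene, averaged 19.4 ± 5.26 CPM with compound 10 and 19.2 ± 0.57 CPM with DMSO.

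**Figure D5:**
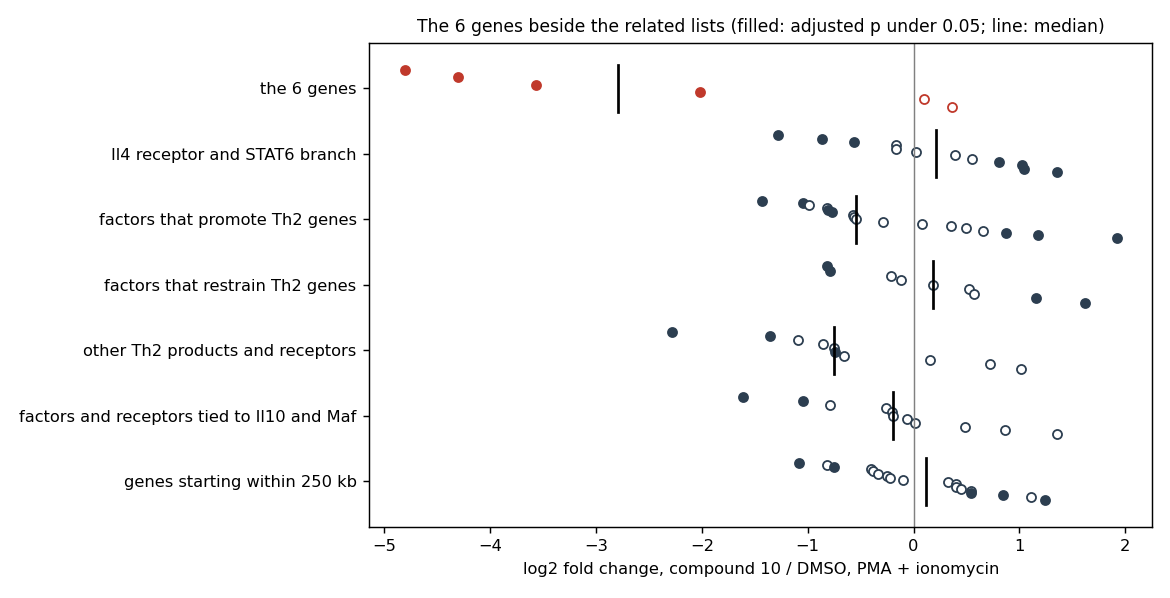
Log2 fold change of compound 10 over DMSO in stimulated cells for the 6 genes and for each tested gene of the related lists, 1 point per gene; filled points had an adjusted p under 0.05 and vertical lines mark the median of a row. Il4, Il5 and Il13 lie between -4.81 and -3.57, and the lowest point of the other rows is Il21 at -2.28.

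In unstimulated cells the lists held few calls that survived the omission of a library. Over all tested genes 4.45% were higher and 2.91% lower. In the interleukin 4 branch 1 was higher and 2 lower of 12. Socs1, a feedback inhibitor of cytokine signals, averaged 111 CPM with compound 10 and 362 CPM with DMSO (log2 fold change -1.71, SE 0.24; adjusted p = 0.00172). Of the promoting factors 1 was higher and 3 lower of 17, of the restraining factors 2 higher of 9, of the genes tied to Il10 and Maf 1 lower of 11, and of the neighbours 1 higher and 1 lower of 18. None of the 10 other products passed in the edgeR test, nor did any at an unadjusted p under 0.05, the smallest adjusted p being 0.272 for Il1rl1. Runx3 averaged 73.3 CPM with compound 10, against 25.8 CPM with DMSO (1.51, SE 0.19; adjusted p = 0.00103). Socs1 and Runx3 were the 2 calls of these lists that held without each library in turn.

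Stimulation of DMSO cells raised 9 and lowered 3 of the 17 promoting factors, and raised 7 of the 10 other products, with medians of 1.00 and 3.36, where 14.4% of all tested genes were higher and 13.8% lower. Of the 12 calls among promoting factors 5 held in each omission, all of them higher, and of the 7 among other products 6 held. Irf4, which acts with NFAT and Batf at the Il4 gene, rose by 5.23 (SE 0.51; adjusted p = 0.000114) and Gfi1, which supports Th2 cell growth, by 4.96 (SE 0.36; 2.84e-06). Under compound 10 the corresponding counts were 7 higher and 1 lower of 17 and 7 higher of 10, of which 6 and 5 held in each omission, where 11.0% of all tested genes were higher and 10.8% lower. There Irf4 rose by 6.33 (SE 0.55; adjusted p = 7.36e-05) and Gfi1 by 4.77 (SE 0.35; 4.12e-06). Irf4 reached 257 ± 100.1 CPM in stimulated compound 10 cells (n = 3), against 508 ± 89.5 CPM in stimulated DMSO cells (n = 2). That difference was not called. The rise under compound 10 started from a lower level, a mean log2 CPM of 1.73 in unstimulated compound 10 cells, against 3.65 in unstimulated DMSO cells. Irf4 was called lower there (edgeR adjusted p = 0.0384), a call that did not hold in each omission.

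Markers of other cells that make these cytokines were set beside the members in stimulated cells. Of 8 basophil and mast cell markers the summed level was 3.23 to 4.97 CPM with compound 10, against 3.39 to 5.55 CPM with DMSO, and Fcer1a and Mcpt8 were at 0 in both groups. Of 5 eosinophil markers the sum was 4.97 to 7.62 CPM with compound 10 and 2.52 to 4.75 CPM with DMSO, with Epx and Ear2 at 0 in both. Type 2 innate lymphoid markers (5 genes, mostly Rora, which CD4+ T cells express too) summed to 84.1 to 102 CPM with compound 10 and 61.4 to 80.3 CPM with DMSO. In this list Klrg1 was called higher (log2 fold change 2.53; adjusted p = 0.00537) and Arg1 lower (-3.71; 0.0218). Both averaged at most 3.03 CPM, and neither call held in each omission. Rora (0.43; adjusted p = 0.107), Il1rl1 (-0.66; 0.447) and Il17rb (1.02; 0.449) were not called. Natural killer and NKT markers (7 genes) summed to 20.1 to 25.6 CPM with compound 10 and 10.3 to 13.4 CPM with DMSO, and none was at 0. Of these Klrb1c rose by 3.72 (adjusted p = 0.00106) and Gzma by 1.51 (0.00306), calls that held in each omission, and 2 more were called higher and lost in 4 or 5 of the 10 omissions. Levels were low, with Klrb1c at 3.81 CPM with compound 10 and 0.284 CPM with DMSO, and Gzma at 6.48 and 2.27 CPM. Zbtb16, the defining factor of NKT cells, was at 1.89 CPM with compound 10, against 4.58 CPM with DMSO (log2 fold change -1.27; adjusted p = 0.0162), a call lost without stimulated DMSO library 2 (0.104) or stimulated compound 10 library 3 (0.0607) or the pair richest in ribosomal RNA (0.116). B cell markers (6 genes) summed to 666 to 902 CPM with compound 10 and 432 to 703 CPM with DMSO, ranges that overlap. Most of that sum was Ighm, at 735 CPM with compound 10 and 535 CPM with DMSO (log2 fold change 0.46; edgeR adjusted p = 0.235). No tested gene of this list was called.

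Regulatory T cells make interleukin 10, and their 5 markers summed to 172 to 271 CPM with compound 10, against 401 to 404 CPM with DMSO. Most of that gap lay in Il2ra, a receptor gene that stimulation raised in DMSO cells too, at 41.6 CPM with compound 10 and 189 CPM with DMSO, and in Ikzf2, at 13.0 CPM with compound 10 and 61.7 CPM with DMSO. Both were called lower, with log2 fold changes of -2.18 for Il2ra (adjusted p = 5.47e-05) and -2.25 for Ikzf2 (1.8e-05), and these calls held in each omission. Ctla4 (0.12; adjusted p = 0.779) and Tnfrsf18 (0.53; 0.101) were not called. Foxp3, their defining factor, was at 6.73 CPM with compound 10 and 18.6 CPM with DMSO (log2 fold change -1.47; adjusted p = 0.00638), a call lost without stimulated DMSO library 2 (0.0547). The 5 follicular helper markers summed to 307 to 313 CPM with compound 10, against 159 to 218 CPM with DMSO. Within that list Bcl6, Cxcr5 and Sh2d1a were called higher and Il21 lower, and Pdcd1 was not called (-0.31; adjusted p = 0.46). The Cxcr5 call was lost without the pair richest in ribosomal RNA, and that of Sh2d1a (0.64; adjusted p = 0.0259) in 5 omissions. The part of these cells in the changes of Il4 and Il10 was not tested.

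Genes most like each member were taken by the root-mean-square difference in group mean log2 CPM over the 4 groups, after each gene's own mean was removed, among 8318 genes (8319 for Il5 and Il13) whose mean log2 CPM was 2 or more. For Il4 they were Serpina3g (difference 0.734), Irf8 (0.918) and Il17f (0.986). For Il5 they were Il17f (0.689), Cd160 (0.752) and Crtam (0.853), for Il13 they were Irf4 (0.879), Il10 (0.883) and Tnfsf14 (0.920), and for Il10 they were Srxn1 (0.616), Nr4a3 (0.687) and Tnfsf14 (0.695). Serpina3g averaged 3.30 CPM in stimulated compound 10 cells and 33.0 CPM in stimulated DMSO cells. The 4 cytokine genes thus had no partner closer than 0.616 on this log2 scale among these candidates. Il5 and Il13 lay below the required mean, so neither could be a partner of another member. Other genes below that mean were left out as well. Gata3 and Maf had close ones, with Sgk1 (0.0371), Ube2e3 (0.0436) and Zfp91 (0.0549) for Gata3, and Sorl1 (0.0131), Brap (0.0208) and Zyg11b (0.0256) for Maf. With 4 group means and changes as small as those of Maf, many genes lie near such a pattern.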

How the data were processed

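Per the labels' protocols, Qiagen kits gave the total RNA, and the Clontech SMART-seq method turned it into libraries. The submitters' processing notes name cutadapt, kallisto and mm10; neither versions nor the transcript annotation could be taken from the sources used here. The authors deposited 1 table of 109617 transcripts per library, with estimated counts, not normalized between libraries, and TPM, per the file headers.

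Transcripts were matched to GENCODE M21 (GRCm38), ignoring identifier versions (108214 matched; unmatched ones held 0.542% to 0.829% of counts), summed per gene and rounded. The 9 libraries, grouped by their titles, were fitted together in edgeR 4.0.16 (R 4.3.3) with 4 group coefficients and no replicate block (filterByExpr, TMM, robust glmQLFit, glmQLFTest, 2-sided), and p-values were adjusted by Benjamini and Hochberg over 14011 genes (threshold 0.05). Each SE is the size of the log2 change over the root of its F statistic, and 95% intervals use the degrees of freedom of the test. The common biological coefficient of variation was 0.244. The test was checked on simulated counts.

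Alternatives were DESeq2 1.42.0, limma 3.58.1 on log2(TPM + 1) and log2(TPM + 0.1), 2 other scalings, no filter, a strict filter (10 counts in every library of a group), an effective-length offset, coding transcripts only, a replicate block, only the groups compared, and leaving out each library. Leaving out ribosomal RNA genes, or the 2 DMSO libraries richest in them, was added after the data were seen.

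The members and lists were chosen with earlier results of these data known. In each list every tested gene was counted and at most the 6 with the smallest p named. Rad50, Kif3a, Prdm1, Irf4 in the compound comparison and the marker genes were named beyond that rule, after their values were seen. Promoter windows are those of RefSeq (GRCm38.p6), matched by symbol for 4 of 6 members; those of Il10 and Maf were not used here. Intervals on counts cover counting error only.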

Additional observations from a re-analysis of the deposited data

Results flagged for a closer look

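The effect of compound 10 on Il4 differed between stimulated and unstimulated cells, by -3.20 on the log2 scale in the test of the interaction (SE 0.39; edgeR quasi-likelihood, adjusted p = 0.00313 over 14011 genes). The effect itself was -4.81 in stimulated and -1.61 in unstimulated cells, and its interaction ranked 11 by p among all genes. Over 21 alternatives the interaction stayed between -3.66 and -2.85, with an adjusted p of at most 0.0448.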

How the results depend on the processing

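Over up to 22 alternatives, 653 values of the 6 genes in 5 comparisons were recomputed. None changed sign while called, 615 stayed on their side of the threshold, 23 lost a call and 15 gained one. In stimulated cells the 4 lower calls were kept throughout. In unstimulated cells the members called numbered 2, against 1 with limma on log2(TPM + 1), 1 on log2(TPM + 0.1), 0 without the 2 DMSO libraries richest in ribosomal RNA, and 0 to 3 with each library left out. The interaction called 1 member, against 2 with no filter, 3 with limma on log2(TPM + 1), and 1 to 2 with each library left out. The causes were not tested.

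Calls over all genes moved more. For the compound in stimulated cells they numbered 3234, against 1195 and 1263 with limma and 1827 without the ribosomal RNA-rich pair, and 1973 to 3167 with each library left out. In unstimulated cells they numbered 1031, against 231 and 177 with limma, 1569 with no filter, 295 without that pair, and 174 to 1457 with each library left out. For stimulation in DMSO cells they numbered 3940, against 2541 on log2(TPM + 0.1) and 1597 without that pair, and 2425 to 4347 with each library left out. Under compound 10 they numbered 3052, and 1506 to 3085 with each library left out. The interaction called 144, against 454 with DESeq2, 512 with no filter, 22 and 17 with limma, 84 with the length offset, 13 without that pair, and 29 to 264 with each library left out. On log2(TPM + 0.1) the all-gene median shifted by up to -0.35.

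Same-numbered libraries correlated at -0.101 to 0.326, and the numbers were not taken to pair samples. Pairs within DMSO or within compound 10 were at 0.182 to 0.326, and pairs across them at -0.101 to 0.181. In a group of 2 the deviations from the mean mirror each other, so this check cannot decide whether same-numbered libraries share a source. With a replicate block the members called numbered 4, 2, 5, 3 and 1 in the order above (compound in stimulated and in unstimulated cells, stimulation with DMSO and with compound 10, interaction), and the interaction called 43 genes. Under the block Gata3 lost its call in unstimulated cells (adjusted p = 0.0534) and for stimulation under compound 10 (0.0526), while Il10 in unstimulated cells (0.0164) and Il4 for stimulation under compound 10 (0.0483) passed.

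Groups of 2 or 3 libraries limit every comparison, and Il5 and Il13 in unstimulated cells rest on at most 12 counts a library.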
